A study of Mus musculus with 2 samples.

Results

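Transcripts of the heart muscle cell were examined in sorted Tie2Cre lineage cells of mouse hearts, taken on embryonic day 12.5. The 36 genes, chosen by symbol, encode proteins of the sarcomere, its Z-disc, the calcium store and the natriuretic peptides, together with muscle creatine kinase and myoglobin. All 36 had at least 1 probe set annotated to that gene alone, among 18193 such genes on the array. Each gene was read from its brightest such probe set. The study compared 1 array of control cells, genotype Tie2Cre;Tbx20 +/loxP, with 1 array of mutant cells, genotype Tie2Cre;Tbx20 loxP/-. Both genotypes thus carry the Tie2Cre transgene and 1 floxed Tbx20 allele, and the remaining allele is wild type in the control and null in the mutant. Tie2Cre acts in endothelium, endocardium and the cells that descend from them, and in blood. It is not a driver of the cardiomyocyte lineage, and the null allele is present in every cell of the mutant embryo. Per the labels' protocols, a cell sorter collected lineage cells that lacked the blood markers CD41, CD45 and Ter119, with DAPI used to label dead cells, and no cardiomyocyte marker was part of the gate. Whether embryos were pooled is not given in the sources used here. With 1 array per genotype there was no replicate check and no test between genotypes, and every difference below is one between these 2 arrays.

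The sarcomere is the contractile unit of striated muscle, in which thick filaments of myosin slide along thin filaments of actin, tropomyosin and troponin. Titin and the Z-disc proteins hold the filaments in register, and calcium released from and pumped back into the sarcoplasmic reticulum switches contraction on and off. Heart chambers use different isoforms of the myosin light chains, and the embryonic heart also uses troponin isoforms shared with slow skeletal muscle. Endocardial cells line the muscle from the inside and are not known for building sarcomeres.

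Promoter sequences are shown for Myl7 and Des, which had the highest mutant over control ratios of the genes measured, and for Nppa and Tnni1, which had the lowest, as the ends of the range described below. Tbx20 belongs to the T-box factors, which bind DNA through sequences that hold TCACAC or its reverse complement. The windows are the 250 bases before the annotated start, from the RefSeq promoter table of build GRCm38.p6. They lie at chr11:5898783-5899032 on the minus strand for Myl7, chr1:75360042-75360291 on the plus strand for Des, chr4:148000472-148000721 on the plus strand for Nppa and chr1:135799171-135799420 on the plus strand for Tnni1, where Tnni1 is shown by the first of its 2 listed starts. Capitals mark matches on either strand to TCACAC, to the TATA box sequence TATAAA, to the GATA factor sequence AGATAA, to the CArG box bound by SRF and to the MEF2 site.
Myl7: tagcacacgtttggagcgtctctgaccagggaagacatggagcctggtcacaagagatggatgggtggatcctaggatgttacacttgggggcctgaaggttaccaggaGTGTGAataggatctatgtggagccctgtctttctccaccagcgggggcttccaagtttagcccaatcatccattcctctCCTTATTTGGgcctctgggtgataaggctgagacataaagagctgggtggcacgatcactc
Des: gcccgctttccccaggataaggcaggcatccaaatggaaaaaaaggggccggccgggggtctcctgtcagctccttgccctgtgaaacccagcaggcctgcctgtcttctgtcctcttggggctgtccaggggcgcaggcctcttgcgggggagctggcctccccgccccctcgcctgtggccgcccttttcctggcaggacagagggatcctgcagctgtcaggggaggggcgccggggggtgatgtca
Nppa: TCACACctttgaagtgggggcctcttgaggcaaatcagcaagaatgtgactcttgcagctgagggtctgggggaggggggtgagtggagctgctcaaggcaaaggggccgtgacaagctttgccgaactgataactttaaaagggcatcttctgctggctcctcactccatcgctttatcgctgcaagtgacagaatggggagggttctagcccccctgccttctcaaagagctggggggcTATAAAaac
Tnni1: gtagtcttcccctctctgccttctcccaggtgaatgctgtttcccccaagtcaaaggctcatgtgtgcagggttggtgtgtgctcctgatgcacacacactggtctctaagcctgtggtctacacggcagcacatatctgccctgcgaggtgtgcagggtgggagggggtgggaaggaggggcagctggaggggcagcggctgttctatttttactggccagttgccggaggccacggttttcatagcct

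In the Nppa window TCACAC began 250 bases before the start, at the window's first base, and TATAAA 9 bases before it. In the Myl7 window TCACAC lay on the opposite strand 141 bases before the start, and a CArG box 61 bases before it. The Des and Tnni1 windows held no match to any of the 5 motifs, and no printed matches overlapped. A promoter was found for 32 of the 36 genes, taking the first listed start of each. TCACAC was present in 7 of these 32 windows, which is 21.9%, against 12.3% of all 32851 promoters of the same length. Those 7 genes were Ankrd1, Ckm, Lmod2, Myl7, Nppa, Ryr2 and Tnni3. A CArG box stood in 5 windows, those of Acta1, Actc1, Ldb3, Myl3 and Myl7, which is 15.6% against 1.47% of all promoters. The MEF2 site was in 4 windows (12.5% against 2.92%), AGATAA in 7 (21.9% against 9.99%) and TATAAA in 5 (15.6% against 12.4%). Such matches are letters in a window and do not show binding.

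Tbx20 itself was bright on both arrays, its 3 probe sets reading 84.0%, 85.9% and 60.2% of control in the mutant, and whether these lie within the floxed region is not given in the sources used here. Signals are MAS5 intensities, on which a probe set's value serves comparison between arrays and not between genes. A gene counted as measured where it lay above the median of each array, called the floor below, at a signal of 91.3 on the control array and 82.4 on the mutant array. This held for 10665 genes, whose log2 ratios, mutant over control, had a median of -0.01 and an SD of 0.38 over genes. All 10 of 10 endothelial and endocardial markers, among them Pecam1, Cdh5, Emcn and Npr3, were measured on both arrays. So were 10 of 10 cushion mesenchyme markers. Brightest probe sets of the endothelial and endocardial markers had log2 ratios from -0.33 for Nfatc1 to 0.25 for Npr3. Over all measured probe sets, Nfatc1 ran from -1.58 to 0.16, Eng from -0.36 to 0.13 and Npr3 from 0.25 to 0.53. The 18 probe sets of spike controls averaged a log2 ratio of -0.45 (SD 0.20), and Gapdh gave a 3' over 5' signal of 2.27 on the control array and 1.64 on the mutant array. Their part in the results below was not tested.

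Heart muscle transcripts were measured in both preparations. Of the 36 genes, 26 lay above the floor on both arrays, as did 10665 of the 18193 genes on the array. Lmod2 lay above it in the control only, Nppb in the mutant only, and 8 on neither. Among the 26, 18 read higher on the mutant array and 8 lower, so 69.2% were higher against 49.0% of all measured genes. With each array's median added as a pseudocount, which shrinks the ratios of dim genes, 14 were higher and 12 lower, or 53.8% against 46.1%. Their median log2 ratio was 0.07 (mean 0.14, SD 0.37 over genes), against -0.01 over all measured genes, and they ranged from -0.48 for Nppa to 0.83 for Myl7. At a 2-fold difference, 0 genes were higher (background 0.647% of all measured genes) and 0 lower (1.46%). At 1.5-fold, 5 were higher, namely Myl7, Des, Tnni3, Actc1 and Ldb3, which is 19.2% against 4.37% of all measured genes, while 0 were lower against 6.61%. With the pseudocount, and likewise with the floor at the 75th percentile, Myl7 and Actc1 alone remained past 1.5-fold. These counts use the brightest probe set. Tnnt2, at -0.24 by that rule, had another measured probe set at -0.78, past 1.5-fold lower, and Ldb3 had another at 0.75. The median was 0.15 after quantile normalization and 0.16 after loess. In such bulk samples more cells of a type and more RNA per cell cannot be told apart.

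**Figure D1:**
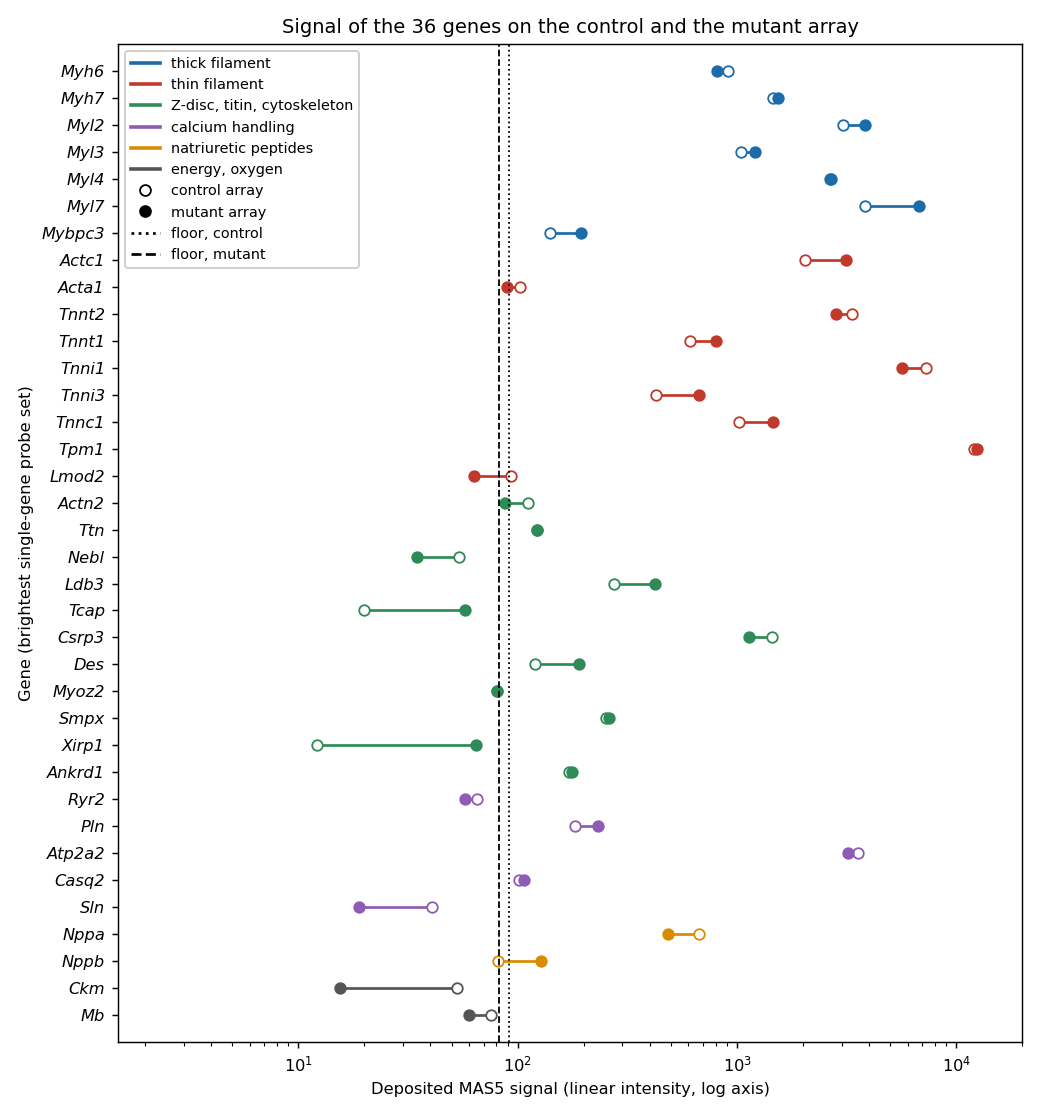
Deposited MAS5 signal on a log axis for each of the 36 genes, with the control array as an open circle, the mutant array as a filled circle and colour for the gene's role. Vertical lines are the floors of 91.3 (control) and 82.4 (mutant), and for 26 genes each circle lies right of its own array's floor, with Tpm1 at 11996 and 12451.

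Brightness sets how far such ratios can be read. Probe sets of the same gene share the RNA, so their differences hold no variation between animals. Error of the probes was not told apart from differences between the transcripts they detect. Within a gene the SD of their log2 ratios was 0.49 under a mean signal of 200, 0.39 from 200 to 1000 and 0.31 above. For the 8 of the 36 genes with several measured probe sets it was 0.23. Of the 12 genes in the bright class, 2 were at least 1.5-fold higher, against 1.70% of the 4347 bright genes. In the middle class 2 of 7 were, against 5.78%, and in the dim class 1 of 7 measured genes was, against 7.78%.

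Thick filament genes read higher on the mutant array in 6 of 7 cases, with a median log2 ratio of 0.22. That is 85.7% against 49.0% of all measured genes, and it counts Myh7 at 0.08 and Myl4 at 0.03. Myl7, the atrial regulatory light chain of myosin, had a signal of 3811 on the control array and 6753 on the mutant array, a 1.77-fold difference. Values for the genes below are given in the same order. This was the widest difference among the 26 measured genes. The middle 90% of bright genes, from percentile 5 to percentile 95, spanned log2 ratios from -0.47 to 0.43, and the 0.83 of Myl7 lay outside that span. It rests on a single probe set. Myl2, the ventricular regulatory light chain, read 3053 and 3814, a log2 ratio of 0.32. Myl3, the ventricular essential light chain, read 1041 and 1210, and its 3 probe sets were all higher, at 0.10, 0.22 and 0.32. Its atrial and embryonic counterpart Myl4 read 2640 and 2691 (0.03), where probe sets of a bright gene differ by an SD of 0.31. The heavy chains differed little on their single-gene probe sets. Probe sets that name both heavy chain genes, and entered no gene value, were at 0.13 and 0.79. Myh7, the beta chain, read 1454 and 1538 (0.08). Myh6, the alpha chain, read 905 and 812 (-0.16), while its other probe set was at 0.05, so its direction depends on the probe set. Mybpc3, which binds myosin and tunes its access to actin, read 140 and 194 (0.47) in the dim class, where probe sets of a gene differ by an SD of 0.49.

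Thin filament genes went both ways. Of 8 measured members 5 were higher (62.5% against 49.0% of all measured genes) and 3 lower, with a median of 0.23. It was 0.05 with the 25th percentile floor and 0.57 with unsuffixed probe sets. Actc1, the cardiac alpha-actin, read 2048 and 3144, 1.54-fold higher. Tnnc1, the calcium-binding troponin of heart and slow muscle, read 1018 and 1463 (0.52). Both ratios lay above percentile 95 of bright genes, which was 0.43, and both genes have 1 probe set. Tnni3, the inhibitory troponin of the mature heart, read 425 and 667, 1.57-fold higher. Its log2 ratio of 0.65 lay above percentile 95 of the middle class, 0.61. Tnni1, the slow skeletal isoform that the embryonic heart uses in its place, read 7257 and 5654, a log2 ratio of -0.36. That lay within percentiles 5 to 95 of bright genes, -0.47 to 0.43. The paired isoforms thus stood on opposite sides of 0, each from 1 probe set.

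Among the tropomyosin-binding troponins the isoforms also lay on opposite sides. Tnnt2, the cardiac form, read 3345 and 2824 (-0.24), and its second measured probe set read 3620 and 2104 (-0.78). Tnnt1, the slow skeletal form, read 610 and 805 (0.40). Tpm1, an alpha-tropomyosin gene also used by smooth muscle and non-muscle cells, read 11996 and 12451 (0.05). A second Tpm1 probe set was also at 0.05 and the remaining measured one at -0.27. Acta1, the skeletal alpha-actin, read 102 and 89.3 (-0.19), close to the floor on both arrays, and since its sequence is close to that of Actc1 its signal is uncertain. Lmod2, which nucleates and lengthens thin filaments, read 93.6 and 63.1, at least 1.14-fold lower against the mutant floor.

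**Figure D2:**
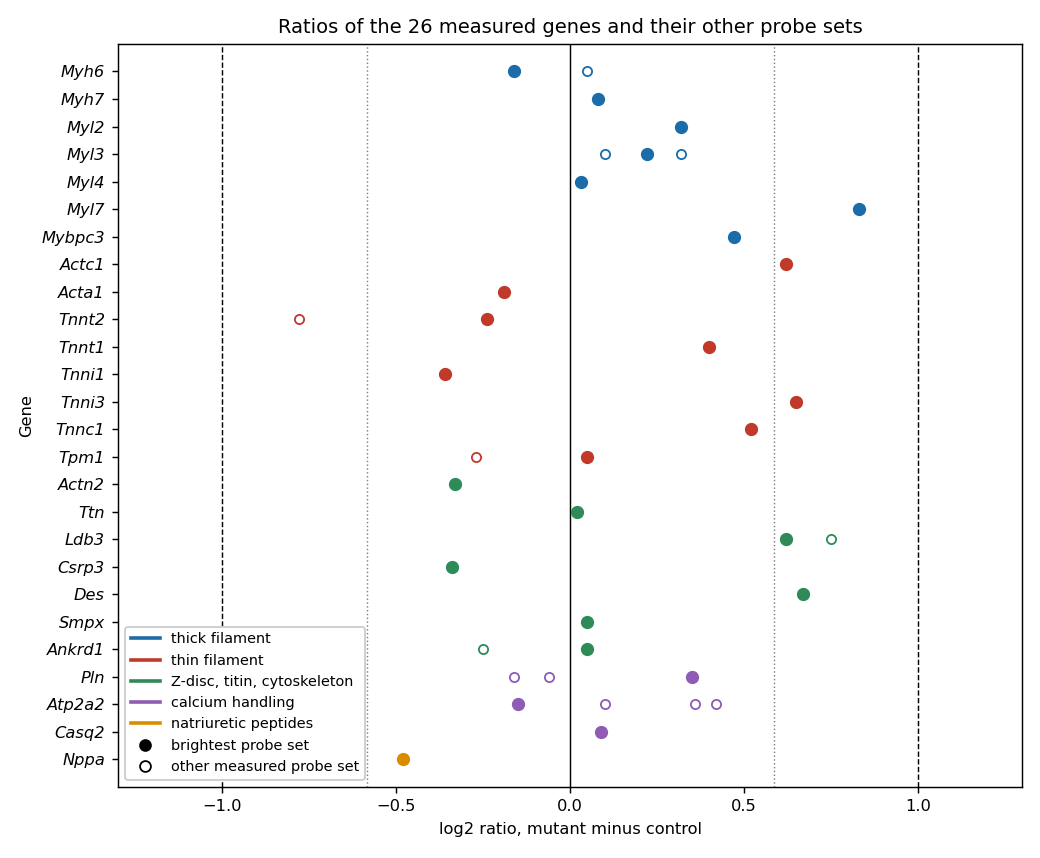
Log2 ratio of mutant over control for the 26 measured genes, filled for the brightest probe set and open for a gene's other measured probe sets, with dashed lines at 2-fold and dotted lines at 1.5-fold. Filled points run from -0.48 for Nppa to 0.83 for Myl7 without reaching 2-fold, and open points of Myh6, Tpm1, Ankrd1, Pln and Atp2a2 fall on the other side of 0.

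Genes of the Z-disc, titin and the muscle cytoskeleton had a median of 0.05 over 7 measured members. Of these 5 were higher (71.4% against 49.0% of all measured genes) and 2 lower, while 4 more genes were under the floor on both arrays. This median turned to -0.02 with the pseudocount and to -0.34 with the 75th percentile floor, which left Csrp3 alone, and was 0.14 after quantile normalization and 0.13 after loess. Ldb3, a PDZ and LIM protein of the Z-disc, read 275 and 422, 1.54-fold higher. Its log2 ratio of 0.62 lay just above percentile 95 of the middle class, 0.61. Its second measured probe set, at 105 and 177, was at 0.75, and its dimmest read 48.8, under the control floor, and 133. All 3 probe sets of Ldb3 were therefore higher. Des, the muscle intermediate filament protein desmin, read 120 and 190 (0.67), but its other probe set was under both floors. The 0.67 of Des lay below percentile 95 of the dim class, 0.70. Csrp3, a LIM protein of the Z-disc, read 1441 and 1138 (-0.34), and Actn2, the alpha-actinin that crosslinks actin there, read 111 and 87.8 (-0.33). The mutant signal of Actn2 was close to the floor of 82.4.

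The stress-responsive repeat protein Ankrd1 read 171 and 177 (0.05), and its other probe set was at -0.25. Smpx, a small muscle protein, read 253 and 261 (0.05). Ttn, the giant spring of the sarcomere, was measured by 1 of its 6 probe sets, which read 122 and 123 (0.02), and the other 5 lay under the floor on both arrays. Nebl, the cardiac relative of nebulin, Tcap, the titin cap, Myoz2, a calcineurin-binding Z-disc protein, and Xirp1, an actin-binding protein of the intercalated disc, were under both floors on every probe set. Their mutant signals were 34.7, 57.6, 80.2 and 64.8, and no fold is given for them. Signals under the floor do not show that a transcript was absent.

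Calcium handling genes gave no common direction. Atp2a2, the calcium pump of the sarcoplasmic reticulum with an isoform made in most cells, read 3574 and 3217 (-0.15) in its brightest probe set, while the other 3 measured ones were at 0.10, 0.36 and 0.42. With the median over its probe sets Atp2a2 was at 0.23. Pln, the phospholamban that restrains this pump, read 182 and 232 (0.35), with its other probe sets at -0.16 and -0.06. Casq2, the calcium-storing calsequestrin of heart, read 101 and 107 (0.09) near the floor. Ryr2, the calcium release channel, and Sln, the atrial regulator of the pump, were under both floors on their 2 probe sets each. The median of the 3 measured genes was 0.09, and it turned to -0.02 with the pseudocount and to -0.03 and -0.15 with the 25th and 75th percentile floors.

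The natriuretic peptides are hormones secreted by heart muscle cells, and Nppa marks atrial and trabecular muscle in the embryo. Nppa read 673 and 482, 1.40-fold lower on the mutant array, the lowest ratio among the 26 measured genes. Its log2 ratio of -0.48 lay within percentiles 5 to 95 of the middle class, -0.69 to 0.61. Nppb read 80.9, under the control floor, and 127, at least 1.40-fold higher. The pair of peptides therefore stood on opposite sides of 0, each from 1 probe set. Muscle creatine kinase, Ckm, read 53.1 and 15.5, and myoglobin, Mb, 75.9 and 60.0, both under the floor on both arrays.

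By chamber, the 3 ventricular genes Myh7, Myl2 and Myl3 were all higher, at 0.08, 0.32 and 0.22, against 49.0% of all measured genes. All 3 ratios lay within percentiles 5 to 95 of bright genes, -0.47 to 0.43. The 5 atrial genes did not move together, with Myl7 at 0.83, Myl4 at 0.03, Myh6 at -0.16, Nppa at -0.48 and Sln under the floor. Medians were 0.22 for the ventricular and -0.07 for the atrial genes, and whether they differ was not tested. The atrial median was 0.03 with the higher floor, where Nppa was no longer measured.

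**Figure D3:**
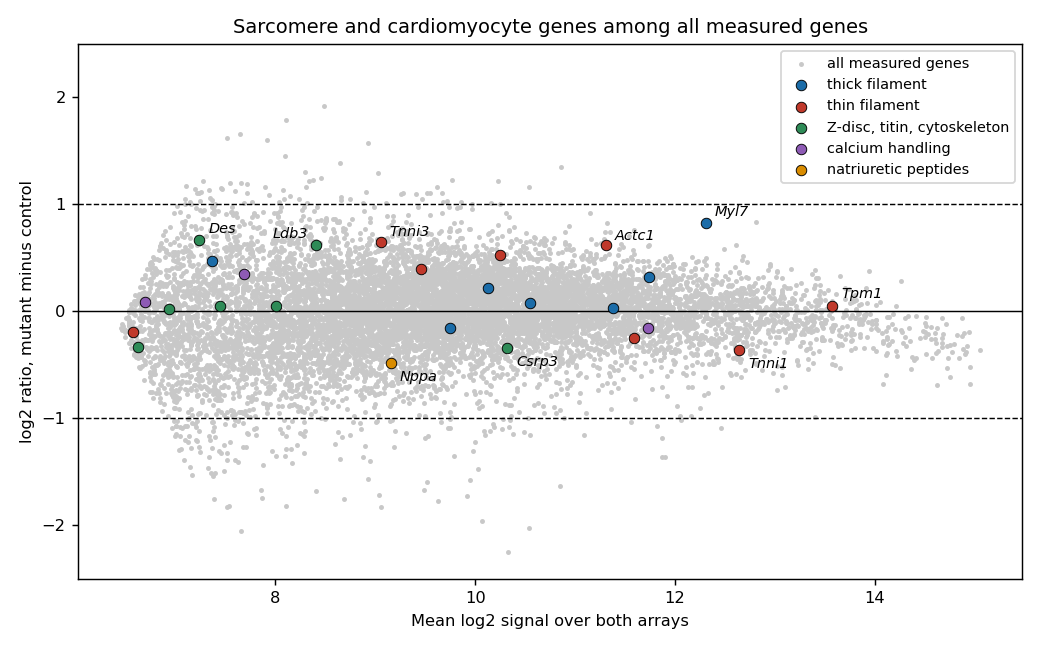
Log2 ratio of mutant over control against mean log2 signal, with all 10665 measured genes in grey, the 26 genes in colour by role and dashed lines at 2-fold. Myl7 and Actc1 sit above most grey points of their brightness, and Nppa, Csrp3 and Tnni1 below 0.

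Other genes typical of heart muscle, none of them among the 36, were mostly lower on the mutant array. Of 40 listed, 34 were on the array and 21 were measured. Of these 18 were lower and 3 higher, so 14.3% were higher against 49.0% of all measured genes. Their median was -0.30 on the log2 scale, or -0.19 with the floor at either the 25th or the 75th percentile. For Pdlim5, Flnc, Cryab and Asph, counted as lower, another probe set was above 0, at up to 0.17, 0.34, 0.33 and 0.25. Above the floor in the control only, Nexn was at least 2.31-fold lower, Rbm20 at least 1.42-fold lower and Cox8b at least 1.40-fold lower. Above it in the mutant only, Smyd1, a methyltransferase of muscle, was at least 2.35-fold higher. Hrc (60.8 and 87.9) and Rbm24 (39.4 and 89.3) were also above the floor in the mutant only. Their mutant signals were under the control floor of 91.3, so no fold bound is given. At 1.5-fold 6 of the 21 were lower, which is 28.6% against 6.61% of all measured genes. At the same size 1 was higher, which is 4.76% against 4.37%. Hspb7, a small heat shock protein of heart, read 1234 and 579 (-1.09), with its other measured probe set at -0.31. Jph2, which ties the sarcoplasmic reticulum to the cell membrane, read 182 and 85.6 (-1.09). Fabp3, a fatty acid carrier, read 1775 and 970 (-0.87), Eno3, the muscle enolase, 249 and 147 (-0.76), and Cox6a2, a muscle subunit of cytochrome oxidase, 437 and 260 (-0.75). Corin, the protease that activates the Nppa hormone, went the other way at 709 and 1418 (1.00). The 26 measured sarcomere and cardiomyocyte genes had a median of 0.07 and these 21 one of -0.30, against -0.01 over all measured genes. The difference between the lists was not tested.

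Markers of other cell types differed between the same 2 arrays, and the counts below stand beside 49.0% of all measured genes being higher. Each summed signal covers every gene of its list on the array, including genes under the floor. Epicardial markers were higher in all 8 measured of 10, with a median of 0.74 and a summed signal of 5254 on the control array and 9198 on the mutant array, and Upk3b at 1.35 and Lrrn4 at 1.22 were widest. Gpm6a, counted as higher at 0.87, had another measured probe set at -0.12. The brightest probe set of Upk1b was above the floor in the mutant only, its 2 fully measured ones were at 0.18 and 0.64, and Msln was under both floors. Cushion mesenchyme markers were lower in 9 of 10 (median -0.31, summed signal 68686 and 57093), with Msx1 at -1.08 and Prrx1 at -0.75. Pdgfra, counted as lower at -0.13, had measured probe sets from -0.81 to 0.20. Erythroid genes were lower in 4 of 4 measured of 7 on the array (median -0.99, summed signal 11522 and 7467), with Klf1 at -1.10 and Hbb-bh1 at -1.01. Smooth muscle and pericyte genes had 2 of 6 measured members higher and a median of -0.10 (summed signal 11346 and 9949), with Cspg4 at -0.93, Pdgfrb at -0.35 and Myh11 under both floors. Of 8 leukocyte and platelet genes 2 were measured, Cd68 at 0.79 and Pf4 at 0.46. The signal summed over all 8 was 579 and 761. Csf1r was above the floor in the control only, at least 1.74-fold lower on the mutant array, while Ptprc, which encodes the gated CD45, and Itga2b, which encodes CD41, were under both floors. The part of these other cell types in the muscle gene signals was not tested.

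**Figure D4:**
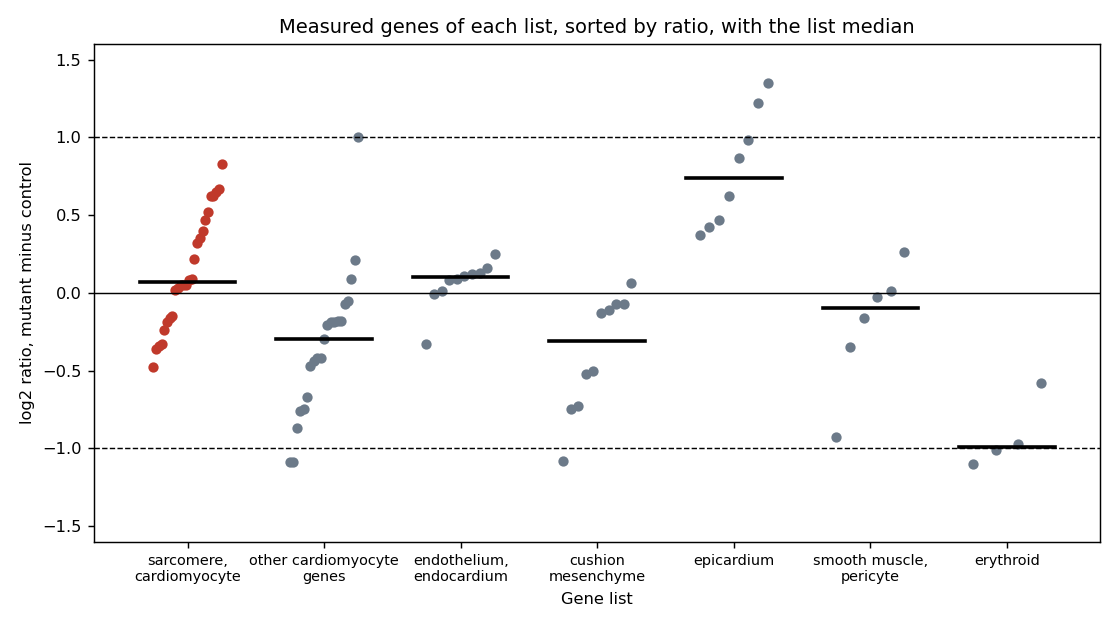
Log2 ratio of mutant over control for the measured genes of each list, 1 point per gene in rising order, with the list median as a black bar and dashed lines at 2-fold. The sarcomere and cardiomyocyte genes spread on both sides of their median of 0.07, the other cardiomyocyte genes lie mostly below 0 and the epicardial markers all above it.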

How the data were processed

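The authors deposited a linear intensity for each probe set on each array. Per the submitters' processing notes they were made with MAS5, and the deposited columns share a mean of 500 once the outer 2% at each end is trimmed. The sources used here do not give the software version or genome build. Because MAS5 subtracts mismatch signal, ratios of dim probe sets are noisy. The array has 45101 probe sets: 64 are controls, and the platform annotation gives 1 gene for 34945, several for 932 and no entry for 9160. Only single-gene probe sets were used. The signals were taken to log2 as deposited, and a gene was read from its brightest probe set by mean log2 signal. Alternatives were median scaling, quantile normalization, loess (span 0.3), a floor at the 25th or at the 75th percentile, each array's median added as a pseudocount, the median over probe sets, unsuffixed probe sets, a 1.5-fold rule and the list mean. Genes under the floor on 1 array have a bound against the other floor. All 36 genes are described. Of the other cardiomyocyte genes the 6 with the largest absolute ratio are named, and of each cell type list the 2 largest, with other genes of those lists, such as those under the floor, named after their values were seen. The genes and lists were chosen with earlier results of these data known. The number of arrays limits the precision. Scripts ran in Python 3.11.15 with pandas 2.3.3 and statsmodels 0.14.6 and were tested on simulated data.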

Additional observations from a re-analysis of the deposited data

Results flagged for a closer look

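The array holds 2 probe sets that name both Myh7 and Myh6, neighbouring genes of closely similar sequence, and that entered no gene value above. Both were higher on the mutant array than on the control array. The brighter of them read 995 on the control array and 1088 on the mutant array, a log2 ratio of 0.13. The dimmer read 251 and 434, a log2 ratio of 0.79, against 0.08 for the single-gene probe set of Myh7 and -0.16 for that of Myh6. No group held more than 1 array, so samples could not be compared within a group.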

How the results depend on the processing

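The count of genes at 2-fold was 0 in either direction under each of the 8 alternatives, and as deposited at 1.5-fold it was 5 higher and 0 lower. The 1.5-fold count under the alternatives, added after seeing the data, was 2 higher with the pseudocount and with the 75th percentile floor, 6 higher and 1 lower with the 25th percentile floor, and 5 higher and 0 lower under the other five. The median of the measured genes kept its sign throughout, at 0.15 after quantile normalization, 0.16 after loess and 0.14 as a mean. It covered 32 genes with the 25th percentile floor, 14 with the 75th, 21 with unsuffixed probe sets and 26 otherwise. With the floor at the 75th percentile 9 of 14 measured genes were higher. The sign held in every alternative run for 20 of the 26 genes. It turned with the pseudocount for Ttn, Smpx, Ankrd1 and Casq2, and with the median over probe sets for Ankrd1, Pln (-0.06) and Atp2a2 (0.23). For none of the 26 did it turn with a scaling between arrays. Thick filament genes were at 0.32 with unsuffixed probe sets, and thin filament genes at 0.57 with them and 0.05 with the 25th percentile floor. The Z-disc group was at 0.14 after quantile normalization, 0.13 after loess, -0.02 with the pseudocount and -0.34 with the 75th percentile floor, which left Csrp3 alone. Calcium handling genes were at 0.23 after quantile normalization, 0.24 after loess, -0.02 with the pseudocount, and -0.03 and -0.15 with the 25th and 75th percentile floors. The atrial median was 0.03 with the 75th percentile floor, and the natriuretic median 0.09 with the 25th percentile floor, which admits Nppb. The other cardiomyocyte genes stayed below 0, at -0.19 with either floor, -0.22 with the median over probe sets and -0.43 with unsuffixed ones. The floors and unsuffixed probe sets change which genes enter; the cause of the other shifts was not tested. No paired analysis was possible because each genotype has 1 array. Ckm and Mb gave no group value. Dim genes, with a probe set SD of 0.49, limit what can be read.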

Other observations

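Genes of fast skeletal muscle were mostly under the floor. Of 14 listed, 11 were under both floors, among them Myh1, Myh2, Myh4, Myod1 and Myog, the last pair being factors of skeletal muscle fate. Tnnt3, the fast troponin that binds tropomyosin, read 291 on the control array and 194 on the mutant array (-0.59), and Tnni2, the fast inhibitory troponin, 105 and 117 (0.16). Mylpf, a fast light chain of myosin, read 192 and, under the mutant floor, 56.1, at least 2.33-fold lower.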
